A study of Mus musculus with 9 samples.

Results

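The genes Pomc, Cartpt, Npy and Agrp, 4 in all, encode the feeding neuropeptides of the arcuate nucleus in the mediobasal hypothalamus. They were taken by Ensembl identifier from a deposited table of gene expression (ENSMUSG00000020660, ENSMUSG00000021647, ENSMUSG00000029819 and ENSMUSG00000005705), of which they are 4 of 13588 entries. The table holds 9 RNA-seq libraries, each made from laser-captured mediobasal hypothalamus of 1 mouse. All mice were male, on a background labelled C57/BL6 and homozygous for a floxed Snord116 allele (B6(Cg)-Snord116tm1Uta/J), so the control mice carried the floxed allele as well. Of the mice, 3 received AAV-GFP, a vector that expresses green fluorescent protein from the CMV promoter, and 6 received AAV-Cre, which expresses Cre recombinase from the CAG promoter and deletes Snord116, a cluster of small nucleolar RNAs, in the cells it enters. Vectors were injected into the mediobasal hypothalamus at 10 to 12 weeks of age, and brains were frozen 10 weeks later. The regions were captured where Cre immunostaining in neighbouring sections showed the vector, and matching regions were taken from AAV-GFP mice, so each library is a region around the injection and not a whole arcuate nucleus. The vectors also differed in promoter and titre, which cannot be told apart from Cre. The 6 AAV-Cre mice were divided by body weight into 3 labelled obese and 3 labelled nonobese. The sample titles contradict these labels, since the word obese stands in the titles of the mice labelled nonobese, and the groups are named here by their weight label.

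Pomc and Cartpt are the anorexigenic genes of the set. Pomc encodes proopiomelanocortin, which is cut to alpha-melanocyte-stimulating hormone, an activator of the melanocortin receptors that lower food intake. Cartpt encodes the cocaine- and amphetamine-regulated transcript peptides, made in many Pomc neurons and also in neurons of other hypothalamic areas. Npy and Agrp are the orexigenic genes, made together in a separate arcuate population. Neuropeptide Y raises food intake through its own receptors, and agouti-related peptide blocks the melanocortin receptors. Leptin acts on both populations, and fasting is known to raise Npy and Agrp and to lower Pomc.

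The genes lie on different chromosomes of the mouse genome (GRCm38, GENCODE M21). Pomc is at chr12:3954951-3960642 on the plus strand, Cartpt at chr13:99898489-99901091 on the minus strand, Npy at chr6:49822710-49829507 on the plus strand, and Agrp at chr8:105566698-105637393 on the minus strand. Their main transcripts have 3, 3, 4 and 5 exons and a length of 1031, 827, 566 and 661 bases. The exons of Agrp share 114 bases with Ctcf on the opposite strand and 114 bases with Gm5914 on its own strand. Whether reads were counted by strand is not given in the sources used here, so Agrp reads in that stretch are uncertain.

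The start-site windows of Pomc and Npy are shown because these genes, made by neurons of different populations, varied together across the libraries. That relation rested on AAV-GFP replicate 3 and labelled obese replicate 3, and a part of these windows in it was not tested. Each line gives the 250 bases before the RefSeq start site, 5′ to 3′ on the gene's own strand (RefSeq, GRCm38.p6), with matches to the searched motifs in capitals. A RefSeq window was at hand for 3 of the 4 genes, and the window of Cartpt is not printed because it lies within an untranslated region of a longer Cartpt transcript.
Pomc, chr12:3954695-3954944: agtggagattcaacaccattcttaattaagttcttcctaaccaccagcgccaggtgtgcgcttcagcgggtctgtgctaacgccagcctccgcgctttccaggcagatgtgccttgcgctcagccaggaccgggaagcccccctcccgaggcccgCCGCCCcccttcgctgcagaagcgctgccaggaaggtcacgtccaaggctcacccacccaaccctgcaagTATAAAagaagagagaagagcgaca
Npy, chr6:49822460-49822709: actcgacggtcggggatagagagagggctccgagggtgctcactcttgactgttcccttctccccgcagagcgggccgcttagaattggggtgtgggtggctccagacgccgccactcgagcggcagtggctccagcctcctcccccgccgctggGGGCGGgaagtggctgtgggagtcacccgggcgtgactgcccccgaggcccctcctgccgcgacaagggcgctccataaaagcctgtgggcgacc

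In all, 5 motifs were searched on both strands, and their matches in these windows did not overlap. The GC box GGGCGG was present in the windows of Pomc and Npy, beginning at position -95 in each, and in that of Cartpt at position -210, counting back from the start site. It is common, with a match in 32.7% of 32841 RefSeq windows of the same length. The TATA box TATAAA was found in Pomc only, at position -25 (12.4% of all windows). The cAMP response element TGACGTCA was found in Cartpt only, at position -112 (1.55% of all windows). The STAT site TTCNNNGAA and the forkhead site GTAAACA were in none of the 3 windows, against 7.02% and 3.17% of all windows. GC content was 60.0% in Pomc, 66.8% in Cartpt and 69.2% in Npy. These matches describe the letters of the windows and say nothing of binding.

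The values are signal, in which the authors divided the reads of each gene by a library size scaled by the TMM method and multiplied it by a constant, so that values are close to CPM. The value of 1 read could be read off each library, and all values were whole numbers of reads. The libraries held between 3929672 and 5766994 reads on the listed entries, and 3 reads, taken as the limit that a count of 0 allows, corresponded to a signal between 0.525 and 0.786. Such floors and all counting intervals cover counting error only. The vector transcripts matched the labels. Cre had 0 to 5 reads in AAV-GFP libraries and a signal of 235 to 8557 in AAV-Cre libraries, and Gfp had 0 reads in every AAV-Cre library. No entry for Snord116 is in the table, so its deletion was not checked here.

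Several libraries stood apart, and these bear on each of the 4 genes. Labelled obese replicates 1 and 3 had high leukocyte and microglial transcripts. Cd74, the invariant chain of antigen-presenting cells, had a signal of 1076 and 1186 there, against 9.53 in labelled obese replicate 2 and between 1.31 and 4.79 in the other libraries. The summed signal of the 9 leukocyte and microglial genes in the table was 4437 and 6715 in those 2 libraries and between 21.9 and 113.7 elsewhere. The same libraries had the lowest Cre signals of the AAV-Cre mice, 1330 and 235. AAV-GFP replicate 3 and labelled nonobese replicate 3 had transcripts of the mammillary region, behind the arcuate nucleus, with Foxa1 signals of 17.3 and 11.9 against at most 0.675 elsewhere. The summed signal of 3 mammillary genes, Foxa1 among them, was 45.4 and 25.2 there and at most 5.95 elsewhere. Only 1 of these genes reached a signal of 1 in 3 or more libraries. Its log2(signal + 1) was 3.66 and 3.01 there and up to 2.80 elsewhere, a narrower separation. Nr5a1, which encodes the factor SF-1 that defines the ventromedial hypothalamus, had 0 reads in the 4 libraries named here (labelled obese replicates 1 and 3 and these 2), and at least 62 reads in the other 5.

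Neurons were well represented in all libraries, and the defining markers of the region were present only in part. The mean log2(signal + 1) of 5 neuronal genes was between 7.75 and 8.25. It was lowest in labelled obese replicates 1 and 3, at 7.90 and 7.75, against at least 8.10 elsewhere. The summed signal of these genes was 1538 and 1487 there, against 1834 to 2198 elsewhere. Of 12 other arcuate genes, 10 had an entry, among them Tac2, which marks arcuate neurokinin B neurons (8.60 to 40.9), and Ghrh, the growth hormone-releasing hormone (0.214 to 27.0). Kiss1 and Slc6a3 had no entry. Of 8 genes of tanycytes, the glia that line the third ventricle, 5 had an entry and Rax did not. The pituitary also makes Pomc. Of its 9 listed genes only Pou1f1, a pituitary transcription factor, had an entry, with a signal between 15.98 and 32.7 in every library, and the hormone genes Prl, Gh, Cga, Tshb, Lhb and Fshb had none. The other listed pituitary genes, Tbx19 and Pitx1, had no entry either. The part of pituitary RNA in the Pomc values was not tested, and Pou1f1 alone cannot gauge it. In such bulk libraries, fewer cells of a type and less RNA per cell cannot be told apart.

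Pomc varied more between mice of a group than it did between groups. Its signal was 100.5, 64.7 and 8.16 in AAV-GFP mice, 36.0, 82.8 and 4.65 in mice labelled obese, and 71.2, 92.5 and 12.8 in mice labelled nonobese (replicates 1, 2 and 3). Each group had at least 1 library under 13 and at least 1 over 82, and the groups overlapped throughout. The highest library was 21.6 times the lowest. This range was larger than the counting error, since the 20 Pomc reads of labelled obese replicate 3 gave a 95% Poisson interval of 2.84 to 7.18 and the 403 reads of AAV-GFP replicate 1 one of 90.9 to 110.8. Group means were 57.8 ± 46.6 in AAV-GFP, 41.2 ± 39.3 in labelled obese and 58.8 ± 41.2 in labelled nonobese mice (SD, n = 3 each).

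Cartpt was the steadiest of the 4 genes. It had a signal of 164, 108 and 70.1 in AAV-GFP mice, 139, 117 and 186 in mice labelled obese, and 134, 162 and 59.1 in mice labelled nonobese. The labelled obese libraries were all above 117, and the lowest values were those of the 2 libraries with mammillary transcripts. Its highest value, in labelled obese replicate 3, came from the library in which Pomc was lowest. Means were 114 ± 47.3, 147 ± 35.3 and 118 ± 53.0 (SD, n = 3 each), and the highest library was 3.15 times the lowest.

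Npy had a signal of 84.8, 57.3 and 21.8 in AAV-GFP mice, 44.3, 74.2 and 18.4 in mice labelled obese, and 37.4, 93.2 and 54.0 in mice labelled nonobese. Means were 54.6 ± 31.6, 45.6 ± 28.0 and 61.6 ± 28.7 (SD, n = 3 each). The groups overlapped, with the lowest libraries, AAV-GFP replicate 3 and labelled obese replicate 3, also among the lowest for Pomc. The highest library was 5.08 times the lowest.

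Agrp was the least abundant of the set and the only member without reads in some libraries. Its signal was 14.5, 5.94 and 2.33 in AAV-GFP mice, 0, 8.85 and 0 in mice labelled obese, and 3.67, 17.8 and 13.9 in mice labelled nonobese. The libraries at 0 were labelled obese replicates 1 and 3, those with high leukocyte and microglial transcripts, where 0 reads allow a signal of up to 0.675 and 0.697. Npy was measured in the same libraries with 197 and 79 reads. Labelled obese replicate 2, with 39 Agrp reads, lay within the range of the other groups. Means were 7.58 ± 6.23, 2.95 ± 5.11 and 11.8 ± 7.29 (SD, n = 3 each).

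**Figure D1:**
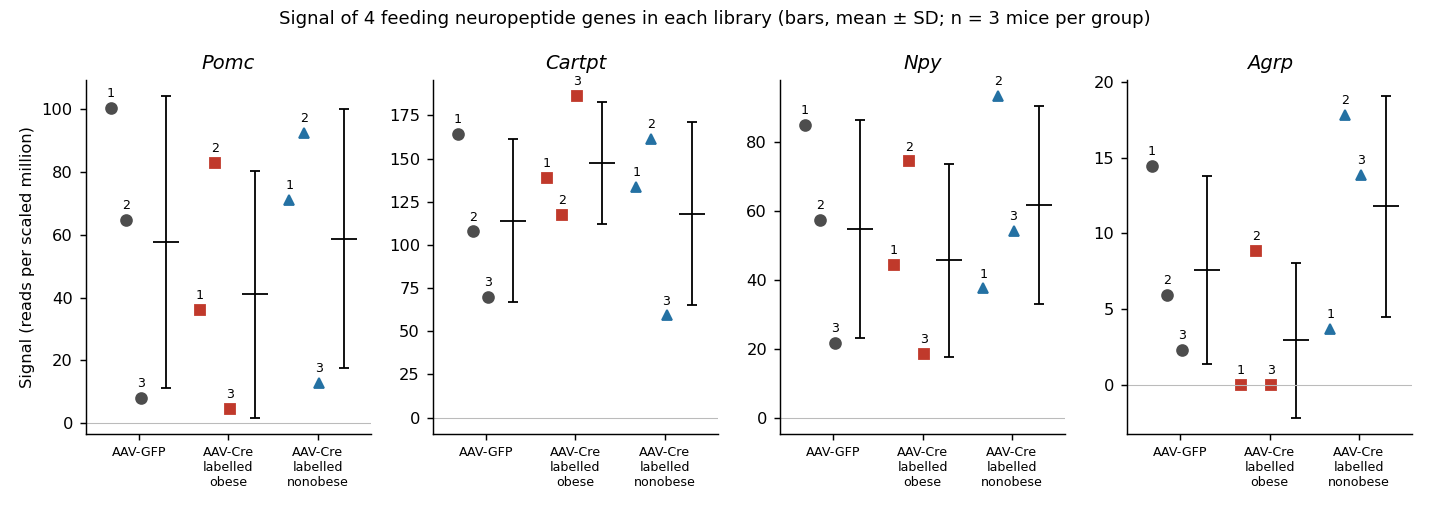
Signal (close to CPM) of Pomc, Cartpt, Npy and Agrp in each of the 9 libraries by group, with replicate numbers beside the points and the mean ± SD of 3 mice beside them. In every panel the groups overlap, 1 library of each group is under 13 for Pomc, and 2 libraries of mice labelled obese are at 0 for Agrp.

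Per kilobase of the main transcript, the order of the levels was Cartpt, Npy, Pomc and Agrp. Mean levels over the 9 libraries were 153 ± 51.6 for Cartpt, 95.3 ± 46.7 for Npy, 51.0 ± 36.7 for Pomc and 11.3 ± 10.1 for Agrp (signal per kilobase, SD). The order held in 7 of 9 libraries. Labelled nonobese replicate 1 had Pomc above Npy, and labelled nonobese replicate 3 had Npy above Cartpt and Agrp above Pomc. The place of Cartpt depended on the length used. With all annotated exons of a gene, Cartpt was 99.1 ± 33.4 and exceeded Npy in 4 of 9 libraries, so Cartpt and Npy were not ordered beyond their spread.

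The spread within groups was wide for 3 of the 4 genes compared with other genes. On the log2(signal + 1) scale the within-group SD was 1.79 for Pomc, 1.42 for Agrp, 0.89 for Npy and 0.60 for Cartpt, against a median of 0.48 over 11873 entries with a mean signal of at least 5. Pomc was at the 99.3rd percentile of these entries, Agrp at the 97.2nd, Npy at the 84.0th and Cartpt at the 63.2nd. Membership of a group accounted for 5.15% of the variation of Pomc, 8.20% of that of Npy and 14.2% of that of Cartpt, below the median entry (24.5%), and for 42.5% of that of Agrp.

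The design asks whether deletion of Snord116 in adult mice changed these peptides, in all AAV-Cre mice or in the subset that became obese. Differences in log2(signal + 1) were tested with limma across the 13506 entries that reached a signal of 1 in 3 or more libraries, and FDR stands for the Benjamini-Hochberg adjusted p, with a threshold of 0.1. A log2 fold change (log2 FC) on this scale understates the change of low genes such as Agrp. The smallest 2-sided p that exact permutation allows is 0.1 for 3 mice against 3 and 0.0119 for 6 against 3.

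No member was called between mice labelled obese and AAV-GFP mice by limma (0 of 4, with 0.555% of all entries called). Agrp had the largest difference, a log2 FC of -1.73 (SE 0.92, FDR 0.552 by limma). Pomc had a log2 FC of -0.60 (SE 0.79, FDR 0.854), Npy of -0.26 (SE 0.45, FDR 0.895) and Cartpt of 0.43 (SE 0.31, FDR 0.690). None of the 4 was under an unadjusted p of 0.05, against 9.88% of all entries, and edgeR and DESeq2 on the recovered reads also called 0 of 4. The Agrp value rested on single libraries. Without labelled obese replicate 2, its log2 FC was -2.83 and its FDR 0.0765. Without both labelled obese libraries that had high leukocyte and microglial transcripts, an alternative chosen after seeing the data, it was 0.47 (FDR 0.895), Pomc was 1.09 and Npy 0.63. The part of these transcripts in the result was not tested.

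Mice labelled nonobese were close to AAV-GFP mice for all 4 genes. The log2 FC was 0.20 for Pomc, 0.01 for Cartpt, 0.27 for Npy and 0.62 for Agrp, each with an FDR of 0.999 (limma, 0 of 4 called, 0.0148% of all entries called). The intervals were still wide, with 95% limits of -1.43 to 1.83 for Pomc, -0.62 to 0.65 for Cartpt, -0.66 to 1.20 for Npy and -1.27 to 2.52 for Agrp. Cartpt was thus the best bounded of the members. At an unadjusted p of 0.05 there were 0 of 4, against 2.27% of all entries.

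With all 6 AAV-Cre mice against the 3 AAV-GFP mice, the differences were smaller than their errors. The log2 FC was -0.20 (SE 0.72) for Pomc, 0.22 (SE 0.28) for Cartpt, 0.00 (SE 0.41) for Npy and -0.55 (SE 0.91) for Agrp, each with an FDR of 0.999 by limma. None of the 4 was called (0.0222% of all entries called), and none was under an unadjusted p of 0.05 (3.14% of all entries). The 3 groups stood in the same order for Pomc, Npy and Agrp, with labelled nonobese highest and labelled obese lowest, and in none of these did neighbouring groups differ beyond their spread.

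Between the subsets, Agrp was higher in mice labelled nonobese, without passing the threshold. Its log2 FC was 2.35 (SE 0.92, 95% limits 0.45 to 4.25, FDR 0.311 by limma). It was the 1 member of 4 under an unadjusted p of 0.05, a level that 11.4% of all entries reached. Its unadjusted p was 0.0173 by limma and 0.2 by exact permutation, and labelled nonobese replicate 1 lay below labelled obese replicate 2. Pomc (0.80, FDR 0.749), Npy (0.53, FDR 0.698) and Cartpt (-0.41, FDR 0.647) did not pass either, and 0 of 4 were called (0.948% of all entries called). Without labelled obese replicate 2, the Agrp difference was 3.45 with an FDR of 0.0201, and without the other 2 labelled obese libraries it was 0.15 with an FDR of 0.969. In all 16 pairs of a gene and a comparison, the values of the groups overlapped, whereas 14.5%, 9.72%, 2.01% and 13.3% of all entries did not overlap in the 4 comparisons in the order given.

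**Figure D2:**
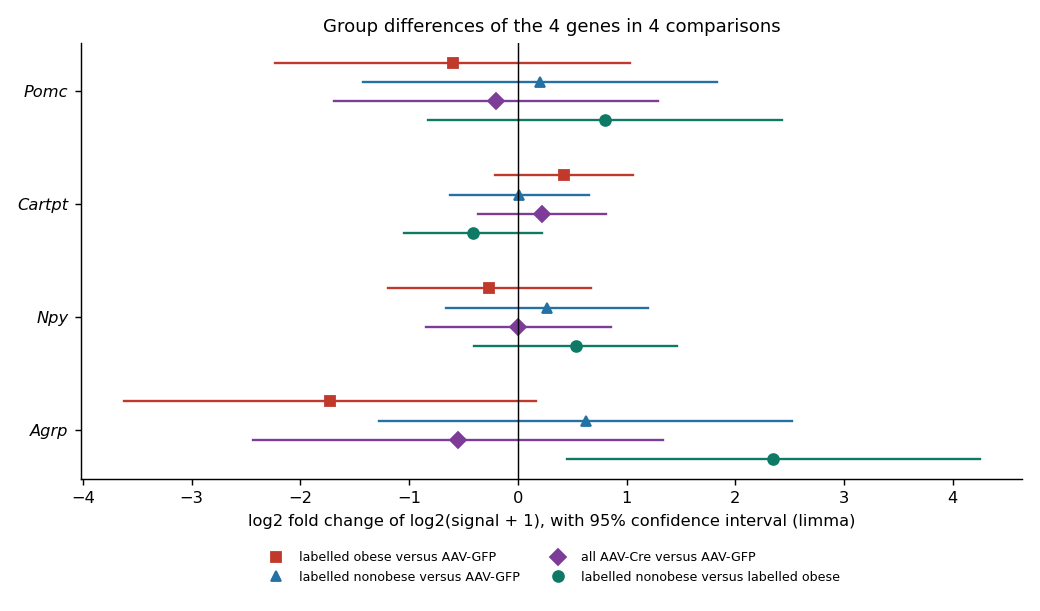
Log2 fold change of log2(signal + 1) with its 95% confidence interval from limma, for the 4 genes in the 4 comparisons (3 AAV-GFP, 3 labelled obese and 3 labelled nonobese mice). All intervals but that of Agrp between the subsets (0.45 to 4.25) include 0, and those of Cartpt are the narrowest.

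Members of the orexigenic pair varied together across the 9 mice. For Npy and Agrp, Pearson's r was 0.786 on the log2(signal + 1) scale (exact permutation p = 0.0135, adjusted p = 0.0406 over the 6 pairs of members), and Spearman's rho was 0.879 (exact permutation p = 0.00340). Without the 2 libraries farthest from the median of Npy, r was 0.717 (exact permutation p = 0.0544). On deviations from the group means r was 0.835 (adjusted p = 0.139 by permutation). The call was also lost without labelled obese replicate 3 (r of 0.671, adjusted p = 0.133 by exact permutation) and without labelled nonobese replicate 2 (r of 0.739, adjusted p = 0.115 by exact permutation). Of the 2 libraries at 0 for Agrp, labelled obese replicate 1 departs most from the other points, with an intermediate Npy signal of 44.3. Labelled obese replicate 3 had the lowest Npy signal, 18.4, and lies with the relation.

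Members of the anorexigenic pair did not vary together over all libraries. For Pomc and Cartpt, r was 0.348 (exact permutation p = 0.357, adjusted p = 0.535) and rho 0.267 (exact permutation p = 0.493). Labelled obese replicate 3, lowest for Pomc and highest for Cartpt, opposed the other libraries. Without the 2 libraries farthest from the median of Pomc, which include it, r was 0.857 (exact permutation p = 0.0423). Without both labelled obese libraries with high leukocyte and microglial transcripts, it was 0.930 (adjusted p = 0.0226), and without both libraries with mammillary transcripts it was -0.504. Both settings were chosen after seeing the data.

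Across the pairs, Pomc went with Npy. Pearson's r was 0.844 (exact permutation p = 0.00518, adjusted p = 0.0311) and rho 0.867 (exact permutation p = 0.00451). This relation rested on AAV-GFP replicate 3 and labelled obese replicate 3, low for both genes, as r fell to 0.463 without them (exact permutation p = 0.301). Pomc and Agrp had an r of 0.566 (rho 0.745, adjusted p = 0.220). Cartpt went with neither orexigenic gene, with an r of 0.130 for Npy (rho 0.0833, adjusted p = 0.749) and of -0.229 for Agrp (rho -0.0586, adjusted p = 0.680). Whether the r of one pair differed from that of another was not tested.

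**Figure D3:**
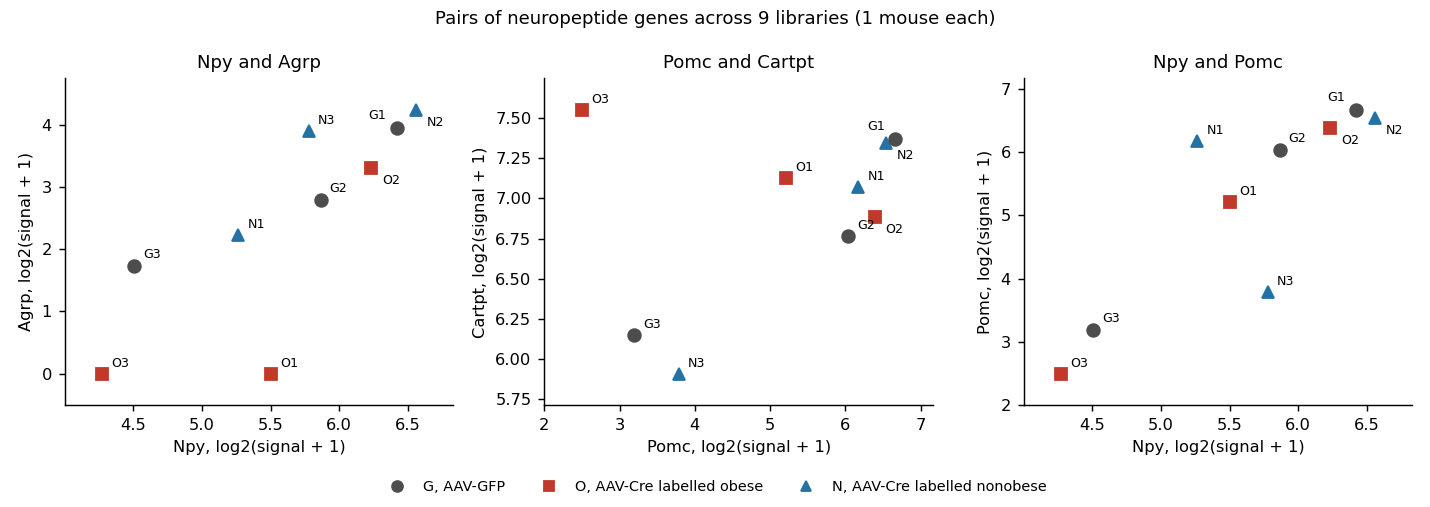
Log2(signal + 1) of Npy against Agrp, Pomc against Cartpt and Npy against Pomc in 9 libraries, each point a mouse named by group (G, AAV-GFP; O, AAV-Cre labelled obese; N, AAV-Cre labelled nonobese) and replicate. Npy and Agrp rise together apart from O1, which is at 0 for Agrp with an intermediate Npy. O3 is also at 0 for Agrp, with the lowest Npy, and lies alone at low Pomc and high Cartpt.

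The ratio of Npy to Pomc signal varied more within groups than between them. Because it depends on transcript length, it is read only between libraries. It was 0.844, 0.885 and 2.67 in AAV-GFP mice, 1.23, 0.896 and 3.95 in mice labelled obese, and 0.526, 1.01 and 4.22 in mice labelled nonobese. In each group, the library with the lowest Pomc had the highest ratio. The ratio of Cartpt to Pomc signal was between 1.42 and 1.87 in the 5 libraries with Nr5a1 reads, and 8.60, 3.86, 40.1 and 4.62 in AAV-GFP replicate 3, labelled obese replicates 1 and 3 and labelled nonobese replicate 3.

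Markers of capture position differed between mice of every group, and Pomc was lower in the libraries without Nr5a1 reads. Libraries with 0 Nr5a1 reads occurred in each group, 1 in AAV-GFP, 2 in labelled obese and 1 in labelled nonobese mice. Pomc was between 4.65 and 36.0 in these 4 libraries and between 64.7 and 100.5 in the other 5, without overlap. Npy was 18.4 to 54.0 against 37.4 to 93.2, Agrp 0 to 13.9 against 3.67 to 17.8, and Cartpt 59.1 to 186 against 108 to 164, all with overlap. These ranges are a description of sets seen in the data and were not tested. The share of all entries without overlap between these sets was not counted. The libraries fell into the same sets by the mean log2(signal + 1) of 6 ventromedial genes, which was 2.16 to 3.29 in the former and 4.43 to 5.27 in the latter, so a correlation over all 9 libraries with that score sets one set against the other and is not read as a relation.

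Npy and Agrp rose with the other arcuate genes, but not firmly. With any mouse left out, the adjusted p by exact permutation was at least 0.104 for Npy and 0.116 for Agrp. The score of these arcuate genes, the mean log2(signal + 1) of 10 genes without the members, was between 3.03 and 4.60. It had an r of 0.703 with Npy (rho 0.650, exact permutation p = 0.0307, adjusted p = 0.0984 over 16 relations of 4 genes with 4 scores), of 0.700 with Agrp (rho 0.628, adjusted p = 0.0984), of 0.654 with Pomc (rho 0.450, adjusted p = 0.124) and of -0.315 with Cartpt (rho -0.450, adjusted p = 0.592). Without the libraries with the highest and lowest arcuate scores, labelled obese replicates 2 and 3, r was 0.405 with Npy, 0.645 with Agrp and 0.229 with Pomc. For no member was the rank correlation under an adjusted p of 0.1. The 16 relations include those with the ventromedial score, which are not read here. Of the 5 under an adjusted p of 0.1, 3 were with that score, and their low p-values lower the adjusted p of the arcuate relations. An adjustment without them was not run. The tanycyte score (r of -0.213 with Agrp to 0.376 with Pomc) and the pituitary score, here 1 gene, Pou1f1 (r of 0.0378 with Cartpt to 0.502 with Npy), passed with none of the 4.

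With the ventromedial score as a covariate in the limma fit, an alternative chosen after seeing the data, the labelled obese difference from AAV-GFP changed from -0.60 to 1.48 for Pomc, from -0.26 to 0.65 for Npy and from -1.73 to -0.37 for Agrp on the log2 scale, with 0 of 4 called. The Agrp difference between the subsets changed from 2.35 to 1.33 (FDR 0.677). Labelled obese replicates 1 and 3 had the lowest ventromedial scores, 2.35 and 2.16, and are in the set of libraries with low Pomc. The covariate therefore raises the Pomc value of that group, and the changes of sign are not read as group differences. The leukocyte and microglial genes were high in 2 of the 4 libraries without Nr5a1 reads, and astrocytic Gfap was 369, 130 and 640 in mice labelled obese against 10.1 to 83.0 in the other 6, so in that group these transcripts, capture position and weight label cannot be told apart.

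**Figure D4:**
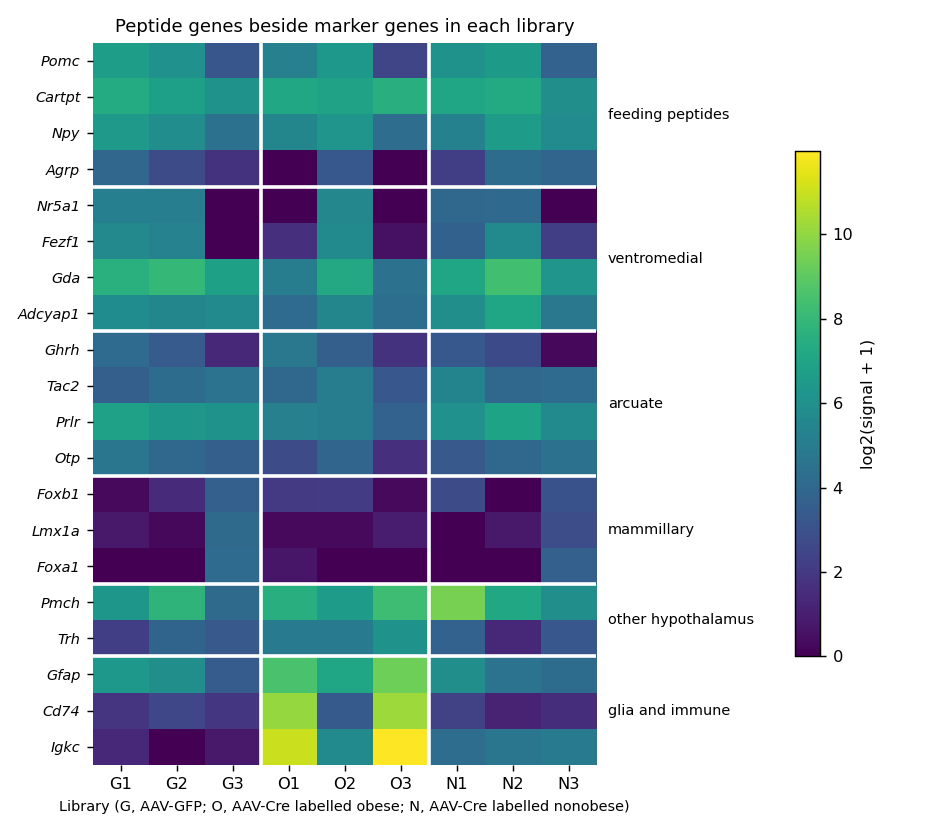
Log2(signal + 1) of the 4 peptide genes and of ventromedial, arcuate, mammillary, other hypothalamic, glial and immune genes (rows) in each library (columns; G, AAV-GFP; O, AAV-Cre labelled obese; N, AAV-Cre labelled nonobese). Nr5a1 is at 0 in G3, O1, O3 and N3, Foxa1 is high in G3 and N3, and Cd74 and Igkc are highest in O1 and O3, the libraries at 0 for Agrp.

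The genes around these peptides were examined through 4 lists, of receptors, prohormone processing, leptin and insulin signalling, and regulators of the peptide genes. Of their 37 genes, 35 were tested. Between mice labelled obese and AAV-GFP mice, 0 of 35 were called (0.555% of all entries), 4 were higher and 1 lower at an unadjusted p under 0.05 (9.88% of all entries), and the median log2 FC was 0.06 against -0.04 over all entries. For mice labelled nonobese these counts were 0 called (0.0148% of all entries), 0 higher and 1 lower (2.27% of all entries), with a median of 0.05 against -0.02. For all AAV-Cre mice they were 0 called (0.0222% of all entries), 2 higher and 0 lower (3.14% of all entries), with a median of -0.01 against -0.03. Between the subsets, 1 gene was called (0.948% of all entries), 1 was higher and 3 were lower at an unadjusted p under 0.05 (11.4% of all entries, and the same share of the 35 genes), with a median of -0.11 against 0.02.

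The called gene was Stat3, which carries the signal of the leptin receptor to the nucleus. Its signal was 97.7, 93.3 and 107 in AAV-GFP mice, 178, 87.4 and 204 in mice labelled obese, and 75.8, 60.8 and 61.9 in mice labelled nonobese. It was lower in mice labelled nonobese than in those labelled obese (log2 FC -1.15, SE 0.26, FDR 0.0386 by limma), and these groups did not overlap (13.3% of all entries did not). The high values were those of the libraries with high leukocyte and microglial transcripts, and without both the log2 FC was -0.40 (FDR 0.640). The call was also lost without labelled obese replicate 1 (FDR 0.254) or 3 (FDR 0.243), and without labelled nonobese replicate 2 (FDR 0.149) or 3 (FDR 0.150).

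Socs3, an inhibitor of leptin receptor signalling that STAT3 induces, had a signal of 3.99, 0.766 and 1.75 in AAV-GFP mice, 30.2, 20.4 and 3.95 in mice labelled obese, and 4.90, 7.07 and 3.20 in mice labelled nonobese. The log2 FC of mice labelled obese was 2.36 (SE 0.79, FDR 0.254 by limma), and the groups overlapped. On recovered reads its FDR was 0.0508 by the edgeR likelihood ratio test, 0.0312 by DESeq2 and 0.226 by edgeR's quasi-likelihood test. It was high in labelled obese replicate 2, which had few leukocyte transcripts, and low in labelled obese replicate 3, which had many.

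Among receptors, 0 of 11 tested were called in any comparison. The leptin receptor gene Lepr had a signal of 14.7, 10.9 and 12.4 in AAV-GFP mice, 15.7, 9.53 and 35.6 in mice labelled obese, and 5.07, 1.83 and 15.4 in mice labelled nonobese (log2 FC between the subsets -1.51, FDR 0.372). Ghsr, the ghrelin receptor gene, had the lowest p of the list for mice labelled obese (log2 FC -1.42, FDR 0.617).

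Of 8 prohormone processing genes tested, 0 were called. Pcsk1n, which encodes an inhibitor of the convertase that cuts proopiomelanocortin, had a signal of 712, 569 and 596 in AAV-GFP mice, 445, 555 and 442 in mice labelled obese, and 563, 690 and 700 in mice labelled nonobese. The labelled obese libraries were below all others. Of all entries, 14.5% did not overlap between mice labelled obese and AAV-GFP mice, and 13.3% did not between the subsets. For Pcsk1n the log2 FC was -0.38 from AAV-GFP (FDR 0.381) and 0.44 between the subsets (FDR 0.239). Without labelled obese replicate 2 these were -0.49 (FDR 0.0726) and 0.55 (FDR 0.0332). Prcp, whose peptidase inactivates alpha-melanocyte-stimulating hormone, had a log2 FC of 1.91 in mice labelled obese (FDR 0.445) at signals of at most 13.2. Of the regulators, Nhlh2, a neuronal transcription factor, had the lowest p in that comparison (log2 FC 1.22, FDR 0.502), and of the leptin and insulin genes Ptpn1, a phosphatase that acts on the leptin receptor's kinase, had a log2 FC of -0.79 between the subsets (FDR 0.420).

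**Figure D5:**
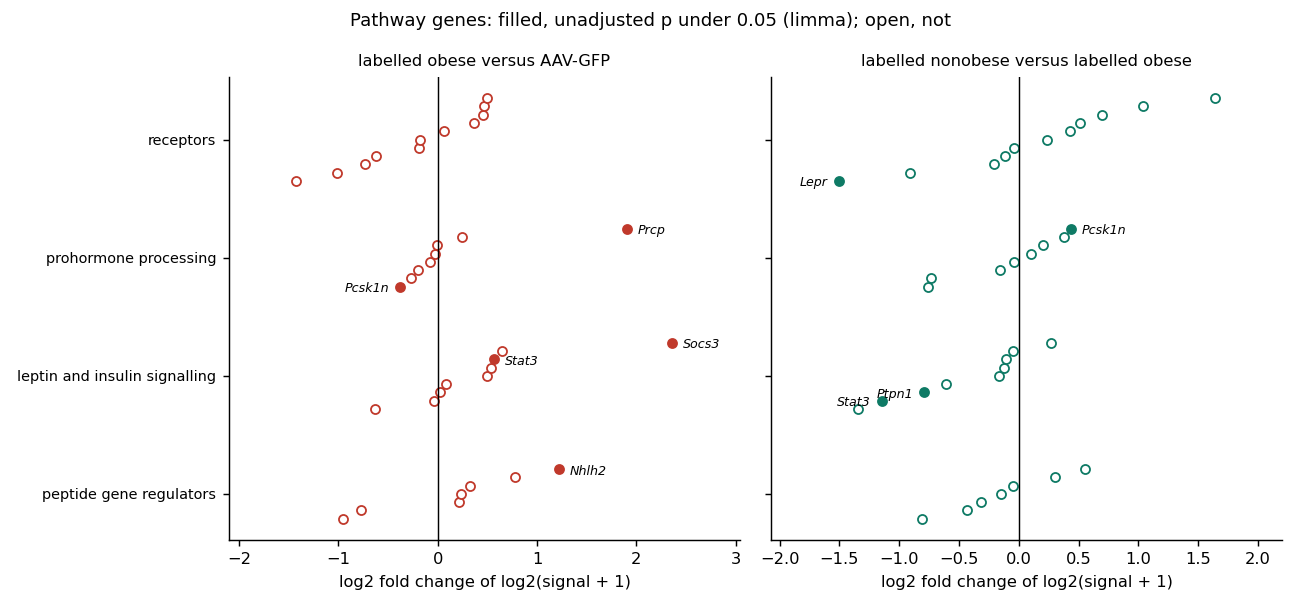
Log2 fold change of log2(signal + 1) of the genes of 4 pathway lists in mice labelled obese against AAV-GFP (left) and mice labelled nonobese against labelled obese (right), with points filled where the unadjusted p by limma was under 0.05. Of these genes only Stat3, in the right panel, had an FDR under 0.1, and Prcp and Socs3 lie farthest to the right in the left panel.

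The entries most like each member were listed by Pearson's r across the 9 libraries, as a description, among 11872 other entries with a mean signal of at least 5. They were Gpr165, Sytl4, Rspo1, Cdc42bpa and Traf7 for Pomc (r of 0.938 to 0.926), and Ubl3, Slc35a5, Syt6, Pgd and Dnajc11 for Cartpt (0.969 to 0.888). For Npy they were Pcdh15, Zfp273, Gm10563, Toe1 and Slc7a6 (0.953 to 0.939), and for Agrp Ube2k, Tfdp1, Cyth2, Krt77 and Atp1b1 (0.961 to 0.941). No member was among the 5 closest to another. Among 13505 other entries, Npy was 75th for Pomc and Pomc 78th for Npy, Agrp was 178th for Npy and Npy 305th for Agrp, and Cartpt was 2817th for Pomc.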

How the data were processed

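RNA of laser-captured mediobasal hypothalamus from 9 mice, 3 per group, was analysed, with each mouse a library. The authors called bases with CASAVA 1.7, mapped reads to GRCm38 with TopHat2 2.0.11 and counted them with HTSeq, per the labels. The authors deposited signal, a CPM-like value in which the reads of a gene are set against a library total that edgeR had rescaled with TMM factors. Whole reads were recovered for 100% of the values in each library (tolerance 0.02 reads), and the median library held 4611358 reads. The sparsest entry had 50 reads in all. Every mouse is a separate animal, and p-values measure the spread between these mice.

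The main test was that of limma 3.58.1 in R 4.3.3 on log2(signal + 1), with a variance trend and Benjamini-Hochberg adjustment, all 3 groups in a fit, or 2 groups for all AAV-Cre mice. Relations were tested by exact permutation of 9 mice (scipy 1.17.1), 2-sided. As alternatives, the pseudocount was set to 0.1 or 5, the filter was left out or raised to 5, and there were centring on library medians, no variance trend, fits to only the groups compared, a replicate block, an FDR of 0.05, edgeR 4.0.16 and DESeq2 1.42.0 on recovered reads, deviations from group means, subtraction of the neuronal score, and leaving out each mouse. The procedure was tested on simulated data.

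The 4 members, the marker and pathway lists and the tests were chosen with earlier results of these data known. Named were the members, pathway genes with an FDR under 0.1, an unadjusted p under 0.05 or the lowest p of their list, and the 5 entries most like each member. The marker genes Cd74, Igkc, Gfap and Foxa1 were chosen after their values were seen. A gene of the mammillary marker list is not reported here and was left out of its score.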

Additional observations from a re-analysis of the deposited data

How the results depend on the processing

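With 3 mice in a group and 1 library a mouse, a within-group SD of 1.79 for Pomc and 1.42 for Agrp left only large changes detectable, and Agrp rested on at most 68 reads a library. Of 400 alternative values of the 16 log2 FCs, 351 kept their direction and their side of the threshold, 2 passed the threshold and 47 changed sign. Where a value changed sign or side, the cause was not tested. The count of members called stayed at 0 of 4 under every alternative except without labelled obese replicate 2, which gave 1 (Agrp) for mice labelled obese against AAV-GFP and 1 between the subsets.

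Of the settings chosen after seeing the data, the ventromedial score as a covariate gave a log2 FC of 1.48 for Pomc and 0.65 for Npy in mice labelled obese, of 0.98 for Pomc and 0.51 for Agrp in all AAV-Cre mice, and of -0.76 for Pomc and -0.15 for Npy between the subsets. The values with this covariate are not read as group differences. Without both labelled obese libraries with high leukocyte and microglial transcripts, the values for mice labelled obese were 1.09 (Pomc), 0.63 (Npy), 0.47 (Agrp) and 0.43 (Ghsr), those for all AAV-Cre mice 0.42 (Pomc) and 0.59 (Agrp), and those between the subsets -0.89 (Pomc) and -0.36 (Npy). Without both libraries with mammillary transcripts, the values were -0.23 (Npy) and -0.14 (Agrp) in mice labelled nonobese, -0.58 (Npy) in all AAV-Cre mice and 0.021 (Cartpt) between the subsets. With the mammillary score as a covariate they were -0.050 for Cartpt in mice labelled nonobese and -0.13 for Npy in all AAV-Cre mice. The Npy value in all AAV-Cre mice, 0.00, was -0.031 after centring, -0.025 and -0.026 by the edgeR quasi-likelihood and likelihood ratio tests, and -0.017 by DESeq2.

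With each mouse left out in turn, the log2 FC of mice labelled obese was between -1.65 and 0.50 for Pomc, -0.81 and 0.27 for Npy, and -2.83 and -1.16 for Agrp. That of mice labelled nonobese was between -0.85 and 1.06 for Pomc, -0.29 and 0.45 for Cartpt, and -0.28 and 0.68 for Npy. That of all AAV-Cre mice was between -1.25 and 0.48 for Pomc, -0.085 and 0.52 for Cartpt, -0.54 and 0.42 for Npy, and -1.10 and 0.011 for Agrp. Between the subsets it was between -0.30 and 1.66 for Pomc, and -0.70 and 0.021 for Cartpt. Members called were 0 to 1 for mice labelled obese and 0 to 1 between the subsets, and pathway genes called were 0 to 2 in each of these comparisons. Without such omissions, pathway genes called for mice labelled obese were 1 by the edgeR likelihood ratio test and 1 by DESeq2 (Socs3 in each), and those between the subsets were 0 without a variance trend, with only the groups compared, with the ventromedial covariate, and without either pair of libraries.

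The r of Npy and Agrp lost its adjusted p under 0.1 with a pseudocount of 0.1 (0.701), minus the neuronal score (0.697) and on deviations from group means (0.835), and was between 0.671 and 0.926 with a mouse left out, where it was lost without labelled obese replicate 3 or labelled nonobese replicate 2. The r of Pomc and Cartpt was 0.930 without the libraries with high leukocyte transcripts, -0.504 without those with mammillary transcripts, and 0.147 to 0.882 with a mouse left out. Cartpt had an r with Npy of -0.308 without the libraries with mammillary transcripts and of -0.18 to 0.56 with a mouse left out, and with Agrp of 0.335 without the libraries with high leukocyte transcripts, 0.00988 on deviations and -0.40 to 0.024 with a mouse left out. Correlations across the pairs under an adjusted p of 0.1 numbered 1. They were 0 without the libraries with high leukocyte transcripts, 2 without those with mammillary transcripts, 0 on deviations, and 1 to 2 with a mouse left out (2 without labelled obese replicate 1 or labelled nonobese replicate 3, where Pomc with Agrp was added). The 16 relations with position scores gave 5 under 0.1. Of these, 3 were with the ventromedial score, whose values fall into separate sets of libraries and are not read as relations. The other 2 were with the arcuate score, and their adjusted p was lowered by the ventromedial relations among the 16. The 5 became 0 with a pseudocount of 5, 0 without the libraries with high leukocyte transcripts, 1 on deviations, and 0 to 1 with a mouse left out. For Cartpt, the r was 0.159 with the arcuate score without the libraries with high leukocyte transcripts (-0.42 to 0.025 with a mouse left out). It was -0.393 with the ventromedial score (-0.031 to 0.50), -0.679 with the tanycyte score (-0.20 to 0.42) and -0.187 with the pituitary score (-0.23 to 0.17) without the libraries with mammillary transcripts. On deviations it was -0.0197 with the pituitary score, and that of Agrp with the tanycyte score was 0.439. Npy had an r with the tanycyte score of -0.057 to 0.42 with a mouse left out.

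The replicate number as a block changed no call of a member between groups. Of the correlations, that of Pomc and Npy lost its call (0.760, adjusted p = 0.352 by exact permutation), that of Pomc and Agrp gained one (0.975, adjusted p = 0.0278 by exact permutation), and those of Pomc and Cartpt (-0.173) and of Cartpt and Npy (-0.192) changed sign. With the block, 200 entries were called for mice labelled obese against AAV-GFP, against 75 without it, and 271 against 128 between the subsets. No animal is in more than 1 library. Correlations of the deviations from group means over all entries were at most 0.0897, between AAV-GFP replicate 3 and labelled nonobese replicate 3, which share a number. Deviations of 3 mice in a group depend on each other, so these values cannot exclude a pairing. Whether the numbers pair the mice was not tested further.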
